A study of Mus musculus with 3 samples.

Results

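In the cytosolic RNA of mouse macrophages, 144 annotated pseudogenes reached at least 1 TPM (a transcript level per length whose sum over genes is equal between libraries) in all 3 libraries. They were chosen by their annotation and by that level: every annotated transcript of the gene had to be typed as a pseudogene, polymorphic ones left out. They make up 144 of 12977 annotated pseudogenes (1.11%) and 144 of the 9456 genes that passed the same level, out of 55450 genes listed in both kinds of table. In replicates 1, 2 and 3 taken alone, 188, 206 and 218 pseudogenes reached 1 TPM, and 10666 were listed at a TPM of 0 in all 3. Because the level chose the pseudogenes, their TPM values are given as a description, with no test.

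The libraries hold ribosome-depleted total RNA of the cytosol of C57BL/6J bone marrow-derived macrophages (BMDM), primary cells grown out of marrow. All 3 belong to 1 group, the 0 minute point of a treatment with lipid A at 100 ng/ml; lipid A is the membrane anchor of lipopolysaccharide and the ligand of TLR4. The labels number them as biological replicates 1, 2 and 3 and give all of them the same donor label, so the spread between them may be technical; there is no second group to compare with. Values with an error are means ± SD over these 3 libraries (n = 3). Expected counts over genes came to 26314434, 41891408 and 56277167 in replicates 1, 2 and 3. The 6 macrophage markers examined lay between 20.7 TPM (Itgam) and 5952 TPM (Lyz2), and the 10 markers of T, B, neutrophil, erythroid and fibroblast cells stayed at or below 0.52 TPM.

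A processed pseudogene is a copy of a messenger RNA that was reverse transcribed and inserted elsewhere in the genome, so it has the exons of its parent gene joined together, no introns, and usually no promoter of its own. An unprocessed pseudogene arose by duplication of DNA; pieces of mitochondrial DNA inserted into a nuclear chromosome are also annotated in this class. Genes that are strongly expressed in the germ line, above all those for ribosomal proteins, have left the most processed copies. A read from a parent mRNA can match a young copy as well as it matches the parent, and a program that estimates expression must then divide such reads. Each library was deposited with 2 sets of estimates. The first has the columns of RSEM, which divides reads aligned to transcripts by an expectation-maximisation procedure. The second has the columns of kallisto, which assigns reads by the short words they share with transcripts and also divides ambiguous ones.

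Of the 144 pseudogenes, 132 were typed as processed, 11 as unprocessed and 1 as transcribed processed; none was unitary (the remains of a gene with no working counterpart). Of all 12977 annotated pseudogenes, 9940 were typed as processed only, 2642 as unprocessed only and 64 as transcribed processed only. Only 24 were unitary and 1 transcribed unitary, so the lack of these does not set the 144 apart. Each of them aligned over at least 50% of its length to a protein-coding transcript, and the gene of the best alignment is called its parent here. There were 132 distinct parents, 11 of which had more than 1 copy in the set, and 133 copies lay on another chromosome than the parent. For 3 pseudogenes the match was the annotated gene they overlap, not a copy elsewhere: Gm17084 and Gm43802 lie in exons of Ripk1 and Gbp7 on the same strand, and Gm5831 lies across an exon of Arhgef12 on the other strand. The copies were close to exact, with a median identity of 99.8%. In 58 of them no base differed over the alignment, 63 were 99% to under 100% identical, 15 were 95% to under 99%, and 8 were below 95%.

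Aligned windows from the coding part of the parent show what the reads had to tell apart. They are given 5′ to 3′ in the sense of the transcript, from the GENCODE M21 transcripts of mm10 with mm10 positions. Capitals mark bases at which copy and parent differ. The first 3 windows are from copies with no difference anywhere in the alignment, so that a single sequence stands for both. Gm28661, the copy with the highest level, matches mt-Co2 (mitochondrial subunit II of cytochrome c oxidase) over all of its 681 bases. Rpl31-ps8, the processed copy with the highest level, matches the mRNA of the large-subunit ribosomal protein Rpl31 over 378 bases. Rps6-ps4 matches the mRNA of the small-subunit ribosomal protein Rps6 over 750 bases. The window of Gm28661 is at chr1:24615446-24615565, that of Rpl31-ps8 at chr15:90764537-90764656 and that of Rps6-ps4 at chr2:75191703-75191822, all on the minus strand.
Gm28661 and mt-Co2: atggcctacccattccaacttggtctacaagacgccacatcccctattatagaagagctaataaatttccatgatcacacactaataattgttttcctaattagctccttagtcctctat
Rpl31-ps8 and Rpl31: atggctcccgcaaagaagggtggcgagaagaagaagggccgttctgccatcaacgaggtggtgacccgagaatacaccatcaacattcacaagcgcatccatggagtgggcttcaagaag
Rps6-ps4 and Rps6: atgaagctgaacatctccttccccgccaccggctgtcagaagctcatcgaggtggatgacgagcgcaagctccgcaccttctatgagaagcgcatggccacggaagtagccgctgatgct

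Other copies differ from the parent at 1 base of the alignment. Gm29216 is a copy of part of mt-Co1 (subunit I of cytochrome c oxidase) with 1 mismatch in 483 aligned bases, and its window at chr1:24616069-24616188 on the minus strand holds it. Mpc1-ps is a copy of Mpc1, a subunit of the mitochondrial pyruvate carrier, with 1 mismatch in 330 aligned bases, shown at chr12:110858775-110858894 on the minus strand. For contrast, Gm5063 is an older copy of Ldha (lactate dehydrogenase A, which interconverts pyruvate and lactate) with 97 mismatches in 998 aligned positions; it was picked after its values were seen. Its window at chr16:44801466-44801585 on the minus strand holds 18 of them.
Gm29216: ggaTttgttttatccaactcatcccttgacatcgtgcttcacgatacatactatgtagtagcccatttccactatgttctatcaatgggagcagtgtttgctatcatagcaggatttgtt
mt-Co1: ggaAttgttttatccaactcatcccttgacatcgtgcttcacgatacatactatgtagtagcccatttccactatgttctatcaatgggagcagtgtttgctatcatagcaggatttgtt
Mpc1-ps: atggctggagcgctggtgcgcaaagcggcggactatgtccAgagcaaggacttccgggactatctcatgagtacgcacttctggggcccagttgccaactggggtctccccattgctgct
Mpc1: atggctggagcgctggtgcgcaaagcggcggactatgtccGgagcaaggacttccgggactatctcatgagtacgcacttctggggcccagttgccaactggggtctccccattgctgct
Gm5063: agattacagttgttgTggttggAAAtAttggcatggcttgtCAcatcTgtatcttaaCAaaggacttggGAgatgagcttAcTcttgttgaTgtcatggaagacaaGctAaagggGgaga
Ldha: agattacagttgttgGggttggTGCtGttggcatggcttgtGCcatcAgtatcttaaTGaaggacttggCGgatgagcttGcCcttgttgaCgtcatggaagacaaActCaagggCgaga

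How much of a gene's sequence is its own was measured as the share of its words of 31 bases, on either strand, that no other annotated gene contains. The median share was 2.72% in the 144 pseudogenes, against 78.6% in all annotated pseudogenes, 75.0% in the parents and 97.8% in all genes with at least 1 TPM. No word of its own was left in 62 of the 144 (43.1%), compared with 8.63% of annotated pseudogenes and 1.40% of genes with at least 1 TPM. The pseudogenes that passed the level were thus mostly those whose sequence is shared with another gene. Their parents were abundant mRNAs: the median parent had 89.3 TPM, against 7.19 TPM for protein-coding genes with at least 1 TPM, and 63 of the 132 parents were above 100 TPM.

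The 6 most abundant pseudogenes are neighbours on chromosome 1 (mm10, between 24612407 and 24616197, minus strand), a nuclear insertion of mitochondrial DNA. They copy, whole or in part, 6 genes of the mitochondrial genome: the cytochrome c oxidase subunits mt-Co1, mt-Co2 and mt-Co3, the ATP synthase subunit mt-Atp6, and the NADH dehydrogenase subunits mt-Nd3 and mt-Nd4l. Gm28661 (copy of mt-Co2) was listed at 877, 915 and 1599 TPM in replicates 1, 2 and 3, a mean of 1130 ± 406 TPM. mt-Co2 itself was listed at 18.6, 23.0 and 12.6 TPM. The copy was above the mitochondrial gene in every library and the ranges did not overlap. Gm28437 (copy of mt-Co3) was at 561, 676 and 1187 TPM and mt-Co3 at 116, 98.96 and 88.0 TPM, again with no overlap. Gm10925 (copy of mt-Atp6) was at 445, 557 and 967 TPM and mt-Atp6 at 136, 113 and 165 TPM, also apart. So 3 copies with no base of difference from their parents held most of the level that the gene tables gave to the pair. None of the 3 copies has a word of 31 bases that no other annotated gene contains. Such words make up 0% of mt-Co2, 0.133% of mt-Co3 and 0.461% of mt-Atp6. With so few words of their own in either gene, the order within these pairs does not show which of the 2 genes was transcribed more. Which gene the reads came from was not tested. In RNA from many cells, fewer cells with a transcript and less of it per cell cannot be told apart.

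The other 3 mitochondrial copies were at or below their parents or just above them. Gm28438 was at 208, 190 and 311 TPM and mt-Nd3 at 167, 168 and 291 TPM; the copy was higher in each library, but the ranges overlapped. Gm10222 was at 210, 289 and 606 TPM and mt-Nd4l at 268, 261 and 448 TPM, with no fixed order. Gm29216 was at 245, 365 and 442 TPM, below mt-Co1 at 884, 1022 and 1682 TPM in every library. All 6 copies were highest in replicate 3, and 5 of the 6 were lowest in replicate 1. Together the 6 copies took 72.4 ± 8.2% of the expected counts given to the 144 pseudogenes. All 144 took 0.274%, 0.354% and 0.499% of gene counts in replicates 1, 2 and 3 (0.376 ± 0.114%), and the 138 others took 0.0974% on average.

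**Figure D1:**
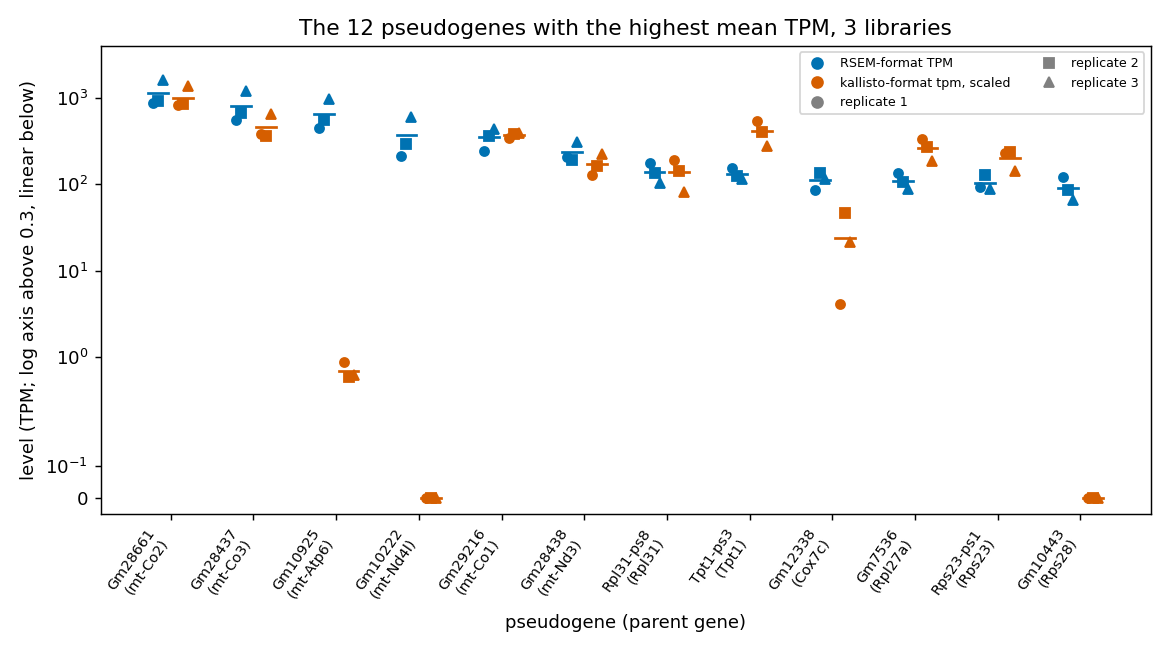
Levels of the 12 pseudogenes with the highest mean TPM, with the parent in brackets; circles, squares and triangles are replicates 1, 2 and 3, and horizontal lines are means. Blue is RSEM-format TPM and orange is scaled kallisto-format tpm; the vertical axis is logarithmic above 0.3. Gm10222 and Gm10443 stand at 0 in orange in all 3 libraries, and Gm10925 lies between 0.590 and 0.867.

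Next to these, 5 processed copies had a mean above 100 TPM. Rpl31-ps8 was at 177, 136 and 102 TPM (138 ± 37.6 TPM), and its parent Rpl31 was at 135 ± 44.3 TPM, so the pair overlapped. Tpt1-ps3 was at 155, 126 and 114 TPM (131 ± 21.4 TPM), below its parent Tpt1, the abundant translationally controlled tumour protein, at 1033 ± 244 TPM. Gm12338, a copy of the cytochrome c oxidase subunit Cox7c, was at 86.9, 135 and 115 TPM, and Cox7c at 87.2 ± 12.1 TPM. Gm7536 and Rps23-ps1, copies of the ribosomal protein mRNAs Rpl27a and Rps23, were at 110 ± 24.5 and 103 ± 21.8 TPM. Below these 11 the levels dropped off: 38 of the 144 had a mean of 10 TPM or more, 75 were under 5 TPM, and the median was 4.49 TPM. Just inside the minimum were Gm10052 (lowest library 1.02 TPM), Gm14822 (1.09) and Gm15920 (1.11). Just outside it were Gm6055 (0.99 TPM), Rpl30-ps1 (0.98) and Gm5884 (0.98).

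Most pseudogenes were listed below their parents. In 124 of the 144 the copy was lower in all 3 libraries, in 12 it was higher in all 3, and in 8 the order varied. The 12 were 4 mitochondrial copies and Ndufb4c, Llph-ps2, Mrpl23-ps1, Gm10557, Gm17147, Gm21811, Bambi-ps1 and Gm7334, named after their values were seen. Ndufb4c, a copy of a respiratory complex I subunit with no base of difference from Ndufb4, was at 41.1, 36.5 and 28.4 TPM (35.3 ± 6.4 TPM), above Ndufb4 at 7.10 ± 1.71 TPM. By expected counts, which are not divided by length, Ndufb4c took 54.4 ± 3.7% of the pair. It has no 31-base word of its own, so this order does not show which of the 2 genes was transcribed more. Gm10557 and Gm21811 are both closest to Cdh11, a cadherin that is itself listed at a mean of 0.02 TPM, and were at 5.13 and 2.07 TPM. For these 2 copies the parent mRNA was thus hardly measured. RefSeq's annotation, matched by symbol for 123 of the 144, lists 6 of them as protein-coding genes (Ndufb4c, Gm12250, Rpl34-ps1, Gm3650, H3f3c and Gm1966), 99 as pseudogenes and 18 as transcribed pseudogenes.

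**Figure D2:**
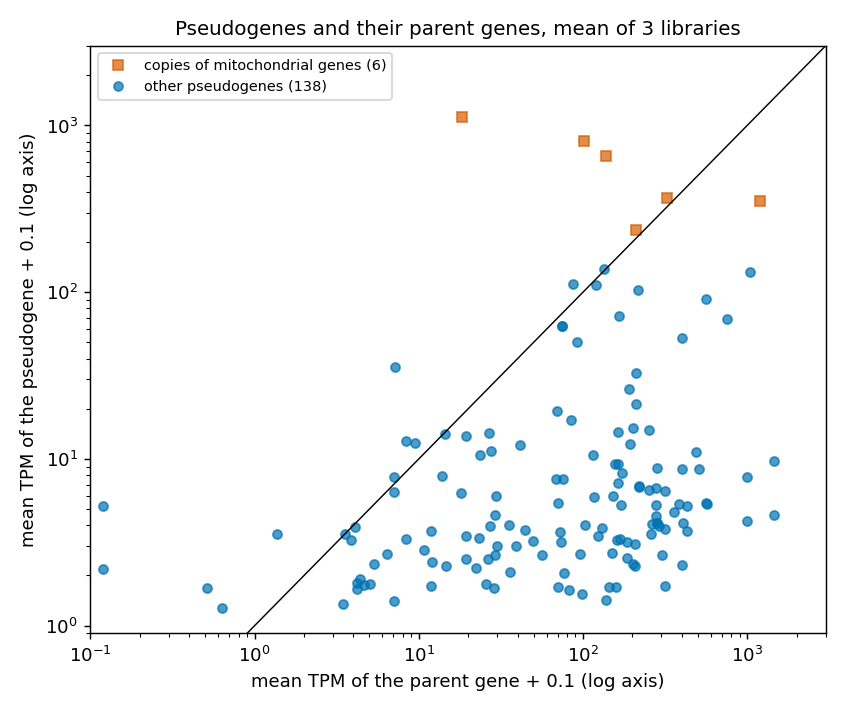
Mean TPM of each of 144 pseudogenes (vertical) against that of its parent (horizontal), both with 0.1 added and on log axes; the line marks equal levels. Squares are the 6 copies of mitochondrial genes, 4 of which lie above the line in every library, and circles are the other 138, most of which lie below it.

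Ribosomal protein mRNAs were the parents of 47 pseudogenes, the most of any named group, and 57 had parents in none of the named groups. Another 6 each copied glycolytic genes, translation factors and mitochondrial genes. Chromatin proteins were the parents of 7, nuclear-encoded respiratory chain subunits and proteasome or ubiquitin genes of 4 each, cytoskeletal and RNA-binding protein genes of 3 each, and a chaperone of 1. The symbol ends in -ps, with or without a number, in 40 cases. In 38 of these the name before that ending was the parent found by sequence. The others were Znf41-ps, closest to Zfp991, and Eif4a-ps4, closest to Eif4a1.

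The second set of estimates gave most of these pseudogenes far less. For the comparison, kallisto-format tpm was summed per gene and divided in each library by the median ratio over protein-coding genes, so that a typical protein-coding gene has the same level in both formats. The ratio is the log2 of kallisto-format over RSEM-format level after adding 0.1 to both. The median log2 ratio over the 144 was -2.34, -2.29 and -2.78 in replicates 1, 2 and 3 (-2.47 ± 0.27), against 0.00 over all genes with at least 1 TPM and -0.02 ± 0.03 over the parents. The 0.00 follows from the scaling, since 9018 of the 9456 genes are the protein-coding genes used for it. The kallisto-format level was at least 2-fold lower in all 3 libraries for 78 of the 144 (54.2%), where 183 of 9456 genes (1.94%) met the same rule. It was at least 2-fold higher in all 3 for 10 (6.94%), against 0.476% of genes. A scaled level of at least 1 in all 3 was kept by 53 (36.8%), against 98.1% of genes. The rule took the pseudogenes at a minimum of the RSEM-format level, which favours genes that are high in that format, so these shares describe the set and are no test of it.

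Of the 183 genes that were at least 2-fold lower, 42.6% were these pseudogenes and 26 were protein-coding. In the other direction, 84 pseudogenes reached a scaled kallisto-format level of 1 in all 3 libraries. The 53 that are in both sets make up 36.8% of the first set and 63.1% of the second. Each pseudogene's counts were also set beside its parent's. The summed counts of parent and copies lay within 1.25-fold of each other in the 2 formats for 128 of 132 parents. The median share of that sum given to the copies was 2.53% in the RSEM-format tables and 0.257% in the kallisto-format tables. Since the copies hold so little of the sum, it is set mainly by the parent, and it does not show where reads of a copy went.

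**Figure D3:**
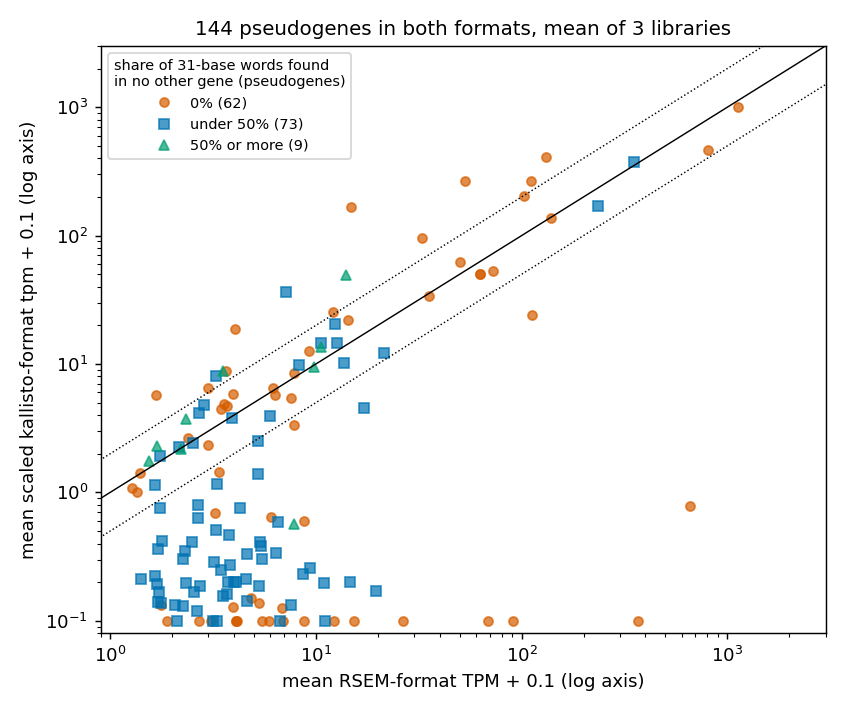
Mean scaled kallisto-format tpm (vertical) against mean RSEM-format TPM (horizontal) of the 144 pseudogenes, both with 0.1 added and on log axes. The solid line marks equal levels and the dotted lines a 2-fold difference; colours and shapes give the share of 31-base words found in no other gene. Points at the bottom edge are listed at 0, and the 9 triangles, with 50% or more of their words their own, include Gm19253 and Gm17147 above the upper dotted line and Gm14328 below the lower one.

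The largest gaps were in copies that one format filled and the other left empty. Gm10222 held 766, 2171 and 5918 expected counts in the RSEM-format tables and is listed at 0 in all 3 kallisto-format tables, where mt-Nd4l took all counts of the pair. Gm10443, a copy of the ribosomal protein mRNA Rps28 with 122, 85.4 and 65.2 TPM, is also listed at 0 in all 3. So are Gm14303 (copy of Rps29), Gm15899 (copy of Actr3, a subunit of the actin-nucleating Arp2/3 complex), Rps6-ps4 and Rpl15-ps3. Rps6-ps4 held 264, 929 and 848 expected counts in the RSEM-format tables, 10.7, 20.6 and 14.4 TPM. Mpc1-ps stood at 21.7, 20.8 and 15.7 TPM and at a scaled 0, 0 and 0.214 in the kallisto-format tables. Its single base of difference is in the window shown above. Gm10925 went from 445, 557 and 967 TPM to a scaled 0.867, 0.590 and 0.612. In all, 19 of the 144 pseudogenes are listed at 0 kallisto-format counts in all 3 libraries and 51 in at least 1. The same count was not made over all genes with at least 1 TPM. Of those genes, 98.1% kept a scaled level of at least 1 in all 3 and so hold no such 0. The choice by RSEM-format level favours such zeros among the pseudogenes.

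In the other direction, 10 copies were at least 2-fold higher in the kallisto-format tables in all 3 libraries, among them copies of a cyclophilin and of ribosomal protein mRNAs. Rpl28-ps1 was at 19.4, 13.4 and 11.5 TPM and at a scaled 205, 181 and 115, a log2 ratio of 3.49 ± 0.23. Gm10123, a copy of Ppia (cyclophilin A, a protein-folding enzyme), was at 53.2 ± 11.8 TPM and a scaled 266 ± 78.5, a log2 ratio of 2.30 ± 0.17. Gm9762, a copy of the ubiquitin-conjugating enzyme gene Ube2d2a, was at 3.93 ± 0.15 TPM and 18.6 ± 6.2. Ranges of the 2 formats did not overlap for these 3. Tpt1-ps3, Rps16-ps2 and Gm10052, copies of Tpt1, Rps16 and the RNA-binding protein gene Hnrnpa1, had log2 ratios of 1.60 ± 0.27, 1.51 ± 0.24 and 1.81 ± 0.22. Gm4332, a copy of Rps20, had a high mean log2 ratio of 2.12 ± 1.29 but was not 2-fold higher in every library. Gm19253, a copy of the mitochondrial ribosomal gene Mrps36 with 18 mismatches in 307 aligned bases, was at 15.9, 12.8 and 13.2 TPM and a scaled 60.0, 44.4 and 42.1. Unlike the rest of those named here, it has words of its own over 86.6% of its sequence.

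The copies were also grouped by how much of their sequence is their own. Among the 62 with no 31-base word of their own, 26 were at least 2-fold lower in the kallisto-format tables, 7 were higher and 29 neither. Among the 73 with some but under 50%, 52 were lower, 1 was higher and 20 neither, with a median log2 ratio of -3.37. Among the 9 with 50% or more, 0 were lower, 2 were higher (Gm19253 and Gm17147) and 7 neither. Gm5063, which differs from Ldha throughout the window printed above, was at 1.31, 1.48 and 1.54 TPM and at a scaled 1.71, 1.66 and 1.58. Gm6548, a copy of the translation elongation factor Eef1a1, was at 9.66 ± 1.90 TPM and 9.45 ± 2.03. Gm1966, closest to the very large interferon-inducible GTPase Gvin1, was at 2.12 ± 0.45 TPM and 2.08 ± 0.45. Gm12250, closest to the immunity-related GTPase Gm5431 with 68.5% identity, was at 14.8, 8.41 and 8.18 TPM and at a scaled 19.1, 10.9 and 10.2. The widest gap among the 9 was that of Gm14328, a copy of the fatty-acid-binding protein gene Fabp5, at 1.42, 13.8 and 7.99 TPM and a scaled 0.662, 0.442 and 0.301. Its log2 ratios were -0.997, -4.68 and -4.34, so it missed the 2-fold rule in replicate 1 alone. Without the added 0.1 its levels are more than 2-fold apart in each library, so the 0 lower among the 9 depends on that setting. These classes were formed after the values were seen, and no relation was tested.

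For the mitochondrial copies the 2 formats divided nearly equal sums in unlike ways. Of the counts given to Gm28661 and mt-Co2 together, the copy took 98.2 ± 0.9% in the RSEM-format tables and 94.1 ± 1.3% in the kallisto-format tables. For Gm28437 and mt-Co3 these shares were 87.7 ± 5.1% and 54.9 ± 5.0%, which did not overlap. For Gm10925 and mt-Atp6 they were 81.6 ± 4.6% and 0.0998 ± 0.0471%. For Gm10222 and mt-Nd4l the copy took 50.6 ± 6.9% against a listed 0. The shares were closer for Gm28438 and mt-Nd3, 52.8 ± 1.8% and 44.1 ± 6.7%, and for Gm29216 and mt-Co1, 5.78 ± 1.00% and 6.33 ± 1.22%. By either set of tables the level of mt-Co2 or mt-Co3 alone is thus a part of what was assigned to the pair, while mt-Atp6 and mt-Nd4l take nearly all of it in 1 of the 2.

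**Figure D4:**
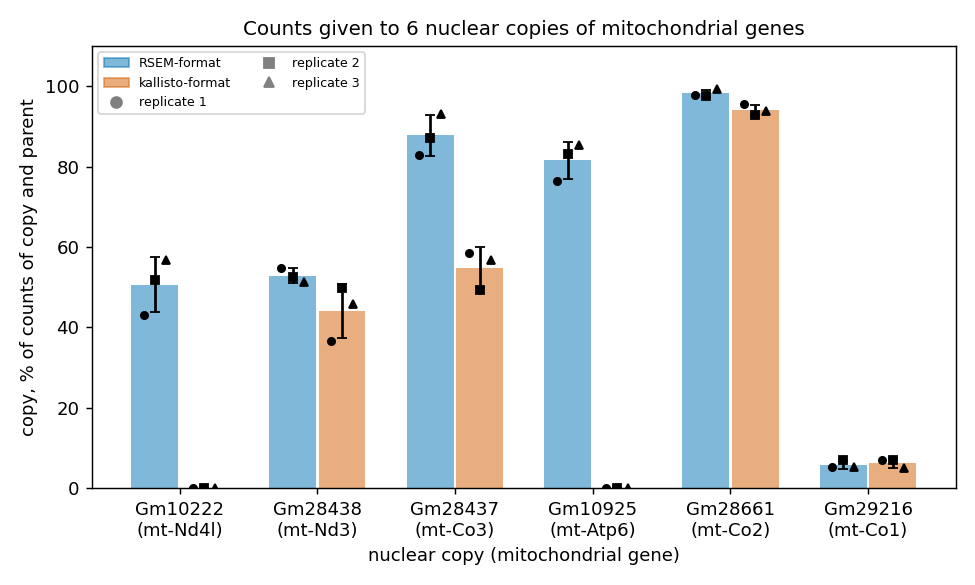
Percent of the counts of a nuclear copy and its mitochondrial parent that was given to the copy (vertical), for 6 pairs; bars are means and whiskers SD of 3 libraries, and symbols are libraries. Blue is RSEM-format and orange is kallisto-format; Gm10222 and Gm10925 are near 0 in orange and at 50.6% and 81.6% in blue.

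The 47 ribosomal protein copies had a median of 6.33 TPM, against 4.49 TPM over all 144 pseudogenes. In this group 44 of the 47 were below the parent in all 3 libraries, and none was above it in all 3. By the kallisto-format estimates, 35 were at least 2-fold lower, 3 were higher (Gm7536, Rps16-ps2 and Rpl28-ps1) and 9 neither, with a median log2 ratio of -3.86. Of the 57 copies outside the named groups, 25 were lower, 2 higher and 30 neither, with a median of -1.06; the difference between these groups was not tested. Of the 6 copies of glycolytic genes, 4 were lower. Gm10359 and Gm12671, copies of Gapdh (glyceraldehyde-3-phosphate dehydrogenase) with the same sequence over 1002 bases, have the same values, 3.28, 4.65 and 4.07 TPM. Rpl27-ps3 and Gm11518 likewise share 74.5, 67.5 and 46.7 TPM, so these 4 entries hold 2 measurements. The sum over parent and copy differed most for Rpl12. The summed kallisto-format counts of Rpl12 and its copy Gm11425 were lower by a log2 ratio of -4.60 ± 0.37, with Rpl12 at 172 ± 39.7 TPM and a scaled 4.23 ± 0.43 and Gm11425 at 8.19 ± 0.79 TPM and 9.67 ± 1.62.

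The copies also varied between libraries in another way than their parents. The lowest of the 3 TPM values fell in replicate 1 for 64 of the 144 (44.4%), against 5.86% of all genes with at least 1 TPM. Log2 TPM in replicate 1 minus the mean of replicates 2 and 3 had a median of -0.05 over the pseudogenes, 0.24 over all such genes and 0.36 over the parents. In the ribosomal protein group the median was -0.25 for the copies and 0.49 for the parents. It was also below 0 for copies and above 0 for parents of chromatin, glycolytic, translation factor, RNA-binding and nuclear-encoded respiratory chain genes. Copies and parents were close for cytoskeletal (0.20 and 0.21) and proteasome or ubiquitin genes (0.21 and 0.28). Both were below 0 for mitochondrial genes (-0.69 and -0.18). The 9 copies with 50% or more words of their own were above their parents (0.46 and 0.34). Replicate 1 was the lowest for 25 of the 47 ribosomal copies and for 0 of their 41 parents, 40 of which were lowest in replicate 3. Rps6-ps4 was lowest in replicate 1 at 10.7 TPM, and Gm9843, a copy of the ribosomal protein fusion gene Fau, was at 3.66, 11.5 and 10.7 TPM. In the kallisto-format tables, replicate 1 was the lowest for 6 of the 53 pseudogenes that kept a scaled level of 1 (11.3%), against 4.66% of genes; by RSEM-format TPM it was the lowest for 14 of the same 53. Replicate 1 has the fewest counts of the 3, and its mean fragment length as derived from the kallisto-format effective lengths was 246 bases, against 227 and 209 in replicates 2 and 3. The RSEM-format effective lengths set replicates 2 and 3 closer together. For the 2413 bases of Znf41-ps they were 2182, 2198 and 2197 bases in replicates 1, 2 and 3. The part of depth and fragment length in the difference between copies and parents was not tested.

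**Figure D5:**
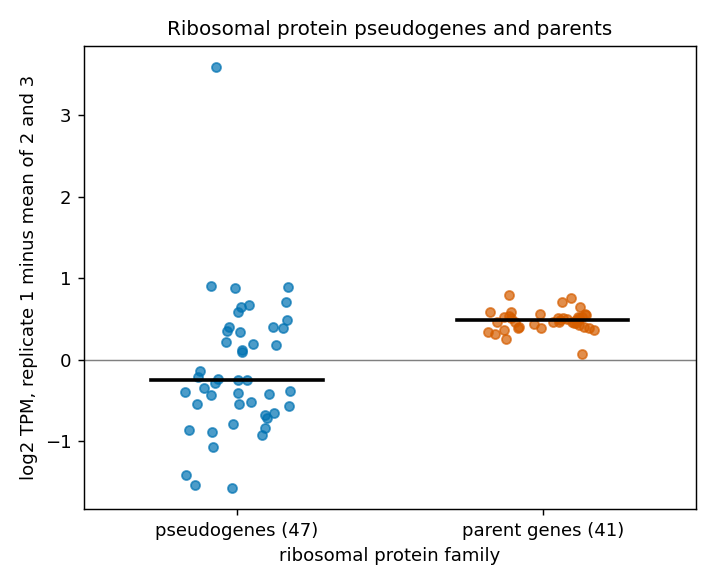
Log2 TPM in replicate 1 minus the mean of replicates 2 and 3 (vertical) for 47 ribosomal protein pseudogenes and their 41 parent genes; points are genes and bars are medians (-0.25 and 0.49). Horizontal position within a group is arbitrary. The parents lie above 0 and the copies spread on both sides of it.

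The median SD of log2 TPM between libraries was 0.319 over the pseudogenes, 0.258 over the parents and 0.176 over all genes with at least 1 TPM. Without replicate 1 these were 0.191, 0.143 and 0.0870. The 4 copies with the largest SD had few counts or a short effective length in at least 1 library. Effective length is the part of a transcript that a fragment can start from. Some copies with such values were less variable. Gm8186 and Gm16199, with effective lengths of 34.0 and 72.4 bases and 13.4 and 23.5 expected counts in replicate 1, had SDs of 0.207 and 0.221. Gm14303, 171 bases long with an effective length of 8.60 bases in replicate 1, was at 176, 12.1 and 17.4 TPM from 71.8, 10.3 and 20.2 expected counts. Gm14328 was named above. Gm10221, a copy of the ATP synthase subunit Atp5l, was at 11.8, 1.92 and 3.80 TPM, and Rpl38-ps2 at 1.58, 2.98 and 7.56 TPM from 1.85, 7.43 and 24.9 counts. A count of 0 would allow up to 3 counts, so the lowest of these values are at the limit of what a library can show; such limits cover counting error only. The steadiest were Gm5831 at 1.68, 1.66 and 1.66 TPM, Gm6563 (copy of Sarnp), Llph-ps2 and Gm9762.

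The intervals that the authors deposited with each TPM were wide for the copies. Their median width was 56.7% of the TPM, against 16.9% over all genes with at least 1 TPM. The lower bound was at least 1 in all 3 libraries for 103 of the 144 (71.5%), against 97.0% of genes. For 4 copies, Gm28661, Gm28437, Gm10925 and Gm5537 (a copy of Pgk1, phosphoglycerate kinase), the TPM lay above its own interval in all 3 libraries (2.78% of the 144), and 91 of 9456 genes (0.962%) met the same rule. For Gm28437 in replicate 1, for instance, the TPM was 561 and the interval 263 to 490. With the posterior mean TPM of the same tables in place of the maximum likelihood value, 458 pseudogenes would pass the minimum of 1 in all 3 libraries, in place of 144.

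The surroundings of the copies were mixed. Outside protein-coding genes and other exons lay 97 of them, 15 were in a protein-coding gene outside its exons on the same strand and 18 on the other strand. Exons of another gene overlapped 8 on the same strand and 6 on the other strand only. Among these, Gm10222 overlaps the annotated gene Gm28439 on the same strand. Whether the counting used strand is not given in the sources used here, so reads of overlapping genes on opposite strands cannot be told apart.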

How the data were processed

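Total RNA from the cytosolic fraction was sequenced in 3 libraries of 1 group. Per the file headers, the authors deposited gene tables in RSEM format, with expected counts (estimated reads per gene), TPM, posterior mean TPM and interval bounds of TPM, and transcript tables in kallisto format, with estimated counts and tpm; per the deposited notes, both use mm10 and the GENCODE M21 annotation. Tool versions are not given in the sources used here.

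The pseudogenes, the gene groups and the alternatives were chosen with earlier results of these data known. Kallisto-format tpm was summed per gene and divided by the median ratio to RSEM-format TPM over protein-coding genes (0.417, 0.503 and 0.419 in replicates 1, 2 and 3). Log2 ratios used a pseudocount of 0.1. Parents were found with blastn 2.17.0 (e-value 1e-05, coverage of at least 50%) against protein-coding transcripts. Shared words of 31 bases were counted over all annotated transcripts. The scripts for parents, words and ratios were tested on simulated data. Genes were named by rank: the 12 highest levels, the 8 lowest and 8 highest ratios, the 4 largest and 4 smallest SDs, and those nearest the minimum of 1 TPM; any other gene named was chosen after its values were seen. RefSeq gene types came from its table for the GRCm38.p6 assembly, matched by symbol. With 1 group and members chosen by level, no test was run. One gene is left out of the set.

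Sampling precision follows from depth: in replicates 1, 2 and 3 the median pseudogene had 71.3, 143 and 161 expected counts.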

Additional observations from a re-analysis of the deposited data

Results flagged for a closer look

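The kallisto-format tables hold reads on pseudogenes for which the gene tables list nothing. Of 10416 pseudogenes with 0 expected counts and an effective length above 0 in all 3 gene tables, 84 had more than 3 kallisto-format counts, the limit that a count of 0 allows, in every library. They were flagged as signal outside the main measurement. The same count was not made over genes of other types, so it does not set pseudogenes apart. The limit of 3 covers counting error only, not how each program assigns reads. Gm12895 and Gm12896, a pair of 226-base processed pseudogenes on chromosome 4 that share 98.98% of their 31-base words, stood far above the rest. Gm12896 held 1076290, 1297370 and 3955780 estimated counts in replicates 1, 2 and 3, Gm12895 held 1075070, 1297370 and 3953210, and both are listed at 0 in the gene tables. Gm19220, with 99.6% of its words found in no other gene, had 5708, 2462 and 4671 counts. Vamp7-ps, with all of its words its own, had 307, 435 and 566 counts. A further 210 pseudogenes had an effective length of 0, and 2 of these, Gm10060 and Gm48981, had more than 3 kallisto-format counts in all 3 libraries. What these reads are was not tested.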

How the results depend on the processing

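Of 68 recomputed values, 55 stayed within 1.5 times the reported count or SD of log2 TPM, or within 1 SD of the reported median ratio or share, and none changed sign. The number of pseudogenes was 221 at a minimum of 0.5 TPM, 53 at 5 TPM and 458 with posterior mean TPM, and 152 to 184 when a library was left out. Without scaling, 1 copy in place of 10 was at least 2-fold higher in kallisto-format and the median log2 ratio was -3.21. At 4-fold, 2 were higher. The median log2 ratio was -2.78 with a pseudocount of 0.01, -1.23 with 1, and -2.15 in counts with values under 3 set to 3, an alternative chosen after seeing the data; the copies that are lower numbered 69 to 95 over all settings. A parent named by the symbol was found for 38. Copies took 0.261% of kallisto-format counts and, without the 6 mitochondrial copies (also chosen after seeing the data), 0.0974% of expected counts. The totals behind the kallisto-format share and behind the unscaled tpm include Gm12895 and Gm12896, which have 0 expected counts. Shares of the 2 formats thus have unlike totals. Leaving out a library gave a median SD of 0.191 (without replicate 1) to 0.338, 53 to 60 copies at a kallisto-format level of 1, 78 to 82 lower, 10 to 11 higher, a median ratio of -2.56 to -2.31, 125 to 126 below the parent, 106 to 116 with a lower bound of 1, and 0.314% to 0.426% of counts. The cause of each move was not tested. No paired analysis was possible because all 3 libraries form 1 group. Depth limits the copies with few counts, down to 1.85 in replicate 1.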
